A study of Mus musculus with 45 samples.

Results

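Mitochondrial ATP synthase, the enzyme that makes ATP from ADP and phosphate, was examined through the RNA of 10 of its nuclear-encoded subunits, namely Atp5a1, Atp5b, Atp5c1, Atp5d, Atp5h, Atp5j, Atp5o, Atp5j2, Atp5k and Atp5l. The genes are 10 of the 55385 gene identifiers in the expression tables. They were taken as a list by name, with earlier results of these data known. They include Atp5j, which lies head to head with Gabpa, the gene of the transcription factor whose protein was removed in the study. All 10 passed the filter on low counts in every comparison, so none is missing from the counts given here.

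ATP synthase has a catalytic head (F1) that protrudes into the mitochondrial matrix and a membrane part (FO) through which protons flow. The proton flow turns a rotor, whose central stalk drives the catalytic sites of the head, while a peripheral stalk holds the head still. GABPA is the DNA-binding subunit of an ETS-family factor that recognizes a GGAA core and is known as a nuclear respiratory factor, for its binding to promoters of mitochondrial genes.

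The study asked what GABPA does in early mouse embryos and mouse embryonic stem (mES) cells by degrading the protein. All embryos and cells, controls included, were Gabpa dTAG/dTAG, with an FKBP degron and an HA tag knocked into both alleles, and received either the degrader dTAG13 or its solvent DMSO. RNA-seq gave 18 libraries at 4 stages, with 3 DMSO and 3 dTAG13 libraries at the late 2-cell stage and 2 of each elsewhere. Embryos came from in vitro fertilization and were cultured in KSOM with 1 µM dTAG13, from the zygote for the late 2-cell libraries, from the 4-cell stage for morulae and from the early blastocyst for the E4.5 inner cell mass (ICM). The E4.5 ICM, whose collection for RNA-seq the study places at the mid-blastocyst, was isolated by immunosurgery, so it mixes epiblast and primitive endoderm cells after removal of the trophectoderm. The mES cells were ES-E14 cells kept in 2i/LIF, from a clone picked after the knock-in, and were treated with 0.5 µM dTAG13 for 24 h. The study calls its replicates at the late 2-cell stage, in the ICM and in mES cells biological, while the labels give no culture or embryo collection for any library. The p-values measure the spread between these libraries.

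Libraries held 18266057 to 27660132 expected counts, except the morula libraries with 9457933 to 12382705. Levels are given as TPM, a scale on which the reads of each gene are divided by its length and each library sums to the same total, so that subunits can be set side by side. Changes are log2 fold changes of dTAG13 over DMSO from expected counts, with their standard error (SE), tested with edgeR's quasi-likelihood test with p-values adjusted across every gene of the fit (Benjamini-Hochberg). A gene passed with an adjusted p under 0.05, and was called, by the study's cut-offs, if it also changed by at least 2-fold and its FPKM averaged 1 or more with either treatment. In bulk RNA, fewer cells of a type and less RNA per cell cannot be told apart. The labelled stages were checked against marker genes. Late 2-cell markers summed to 137 to 401 TPM at that stage and to at most 47.4 TPM elsewhere, primitive endoderm markers stayed under 1 TPM in mES cells, and cumulus and blood markers summed to at most 2 TPM outside the late 2-cell stage, where they reached 43.9 TPM through 1 of the 6 markers. Trophectoderm markers were present in the ICM libraries, as described beside the ICM results.

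Positions are given for the 9 members that also have a promoter window in the reference used here, which leaves out the head subunit Atp5a1. On GRCm38 (GENCODE M21), the other head genes lie at chr10:128083273-128090391 (Atp5b, plus strand), chr2:10056016-10080510 (Atp5c1, minus) and chr10:80138632-80145818 (Atp5d, plus). The peripheral stalk genes lie at chr11:115415689-115419962 (Atp5h, minus), chr16:84827866-84835625 (Atp5j, minus) and chr16:91925214-91931687 (Atp5o, minus), and the membrane genes at chr5:145183698-145192062 (Atp5j2, minus), chr5:108433244-108434448 (Atp5k, minus) and chr9:44912557-44920742 (Atp5l, minus). Gabpa spans chr16:84834925-84863779 on the plus strand. The Atp5j and Gabpa genes overlap by 701 bases at their 5′ ends and share 397 exonic bases, which are 12.68% of the exonic bases of Atp5j and 6.98% of those of Gabpa. The libraries do not keep strand, so reads from the shared bases cannot be assigned to either gene by strand.

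Promoter windows from RefSeq (GRCm38.p6), which run from 250 bases before to 50 after each annotated start site, were matched by symbol for 9 of the 10 members. Atp5a1 had no window in the table. The letters CCGGAAG, an ETS-type sequence, were searched on both strands. They occurred in windows of 4 of the 9 members (44.4%), namely Atp5h, Atp5j, Atp5k and Atp5l, and in 8.86% of all 32851 windows (9.93% of 27025 genes). These 4 windows are shown because they include the neighbour of Gabpa and the subunits with the largest changes in the ICM. Each is written 5′ to 3′ on the strand of its gene, with the match in capitals, as CCGGAAG or as its complement CTTCCGG.
Atp5h, chr11:115419870-115420169, minus strand: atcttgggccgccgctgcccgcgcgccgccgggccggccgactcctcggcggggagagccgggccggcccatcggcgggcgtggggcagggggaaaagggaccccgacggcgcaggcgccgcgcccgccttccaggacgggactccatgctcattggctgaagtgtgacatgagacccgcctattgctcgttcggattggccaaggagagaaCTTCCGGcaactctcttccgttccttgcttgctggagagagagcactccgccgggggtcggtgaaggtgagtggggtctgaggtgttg
Atp5j, chr16:84834927-84835226, minus strand: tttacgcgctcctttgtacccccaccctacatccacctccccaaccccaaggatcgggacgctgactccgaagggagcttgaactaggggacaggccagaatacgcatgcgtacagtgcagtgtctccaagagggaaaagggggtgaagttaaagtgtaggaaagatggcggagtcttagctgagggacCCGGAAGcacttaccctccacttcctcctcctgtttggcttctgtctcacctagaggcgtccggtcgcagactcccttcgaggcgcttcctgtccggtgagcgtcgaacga
Atp5k, chr5:108434350-108434649, minus strand: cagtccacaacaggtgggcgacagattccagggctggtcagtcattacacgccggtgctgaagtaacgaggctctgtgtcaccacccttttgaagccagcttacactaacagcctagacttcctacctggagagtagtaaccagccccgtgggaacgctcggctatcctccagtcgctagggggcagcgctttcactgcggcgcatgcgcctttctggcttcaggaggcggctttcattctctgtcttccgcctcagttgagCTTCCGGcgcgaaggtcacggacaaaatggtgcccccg
Atp5l, chr9:44920693-44920992, minus strand: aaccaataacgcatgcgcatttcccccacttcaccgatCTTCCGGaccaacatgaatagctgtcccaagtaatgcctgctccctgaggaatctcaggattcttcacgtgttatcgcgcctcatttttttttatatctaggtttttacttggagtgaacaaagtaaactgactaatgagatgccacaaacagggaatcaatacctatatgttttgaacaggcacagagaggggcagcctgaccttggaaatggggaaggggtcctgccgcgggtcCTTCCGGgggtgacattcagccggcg
The match began at -38 in Atp5h, at -61 in Atp5j, at 13 in Atp5k and at -212 and 25 in Atp5l, counted from the start site. The Atp5j match, at position 84835031 of chromosome 16, is at the same time the match at -93 in the window of Gabpa, since the start sites of both genes lie 148 bases apart and their windows share 247 bases. A second RefSeq start of Atp5j, whose window had no match, lies inside the Gabpa gene. Atp5b, Atp5c1, Atp5d, Atp5o and Atp5j2 had no match in their windows, and the longer CCGGAAGTG, present in 2.03% of all windows, was in none of the members' windows. A match is a description of the letters only.

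In DMSO controls the transcripts of all 10 subunits rose from the late 2-cell stage to the morula. The labels give no preparation day or batch, so stage and batch cannot be told apart in any comparison of control stages. The increase was 3.60 on the log2 scale (SE 0.151, adjusted p = 1.74e-09, edgeR) for Atp5l and 0.52 (SE 0.142, adjusted p = 0.00571) for Atp5b. All 10 members passed as higher, against 31.2% of all genes tested higher and 38% lower, and their median change was 1.80, against -0.28 over all genes. With limma on log2 TPM 9 of 10 passed, without Atp5c1 (0.41, adjusted p = 0.0727 with log2(TPM + 1)), which was at 258, 243 and 252 TPM and then at 261 and 428 TPM. Summed over the 10 subunits, the control level was 2600 to 2890.1 TPM at the late 2-cell stage, 9330 and 9353 in morulae, 10111 and 10194 in the ICM and 10281 and 10343 in mES cells. Gabpa moved the other way, with a level of 106, 116 and 87.3 TPM in the late 2-cell controls and 6.67 and 8.13 in the morula controls (log2 change -2.54, SE 0.164, adjusted p = 4.83e-08).

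Members diverged at the later steps. From morula to ICM controls the head subunits Atp5a1, Atp5b and Atp5c1 rose, by 1.01, 1.07 and 0.72 in log2 counts, whereas Atp5h, Atp5j, Atp5k and Atp5l fell (-0.53, -0.56, -1.11 and -0.61), with adjusted p-values of 0.000164 to 0.0156. These 3 higher and 4 lower compare with 24.6% and 21% of all genes. Atp5d, Atp5o and Atp5j2 did not pass. Both directions depend on the scale. With limma on log2 TPM 1 member was lower (Atp5k) and 5 were higher (Atp5a1, Atp5b, Atp5c1, Atp5o and Atp5j2), while Atp5h, Atp5j and Atp5l did not pass (-0.09, -0.13 and -0.17). Atp5h also did not pass without either ICM replicate, nor Atp5c1 without ICM replicate 1 or with upper-quartile scaling. Atp5b did not pass with offsets for effective length (0.16), and its mean effective length was 556 bases in the morula controls and 1053 in the ICM controls. Its level was 1440.4 and 1300.3 TPM in morulae and 1923 and 1916 TPM in the ICM.

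Between ICM and mES cell controls, Atp5a1 was lower in mES cells (log2 difference -0.56, adjusted p = 0.00842) and 7 members were higher, from 0.56 for Atp5c1 to 1.15 for Atp5o. Atp5b and Atp5d did not pass. The shares over all genes were 20.7% lower and 21.9% higher. Scaling by library totals shifted the median of all genes by -0.33 in this comparison and left 2 members higher, and on log2 TPM with limma Atp5c1 and Atp5h came out at -0.06 and -0.02, so the order of these stages rests on the scale for most members. Without either ICM replicate 4 members were higher, and Atp5a1 no longer passed without either ICM replicate or without mES cell replicate 2. In each of the 4 control groups Atp5j or Atp5b had the highest level of the 10 by mean TPM, while Atp5d or Atp5a1 had the lowest.

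**Figure D1:**
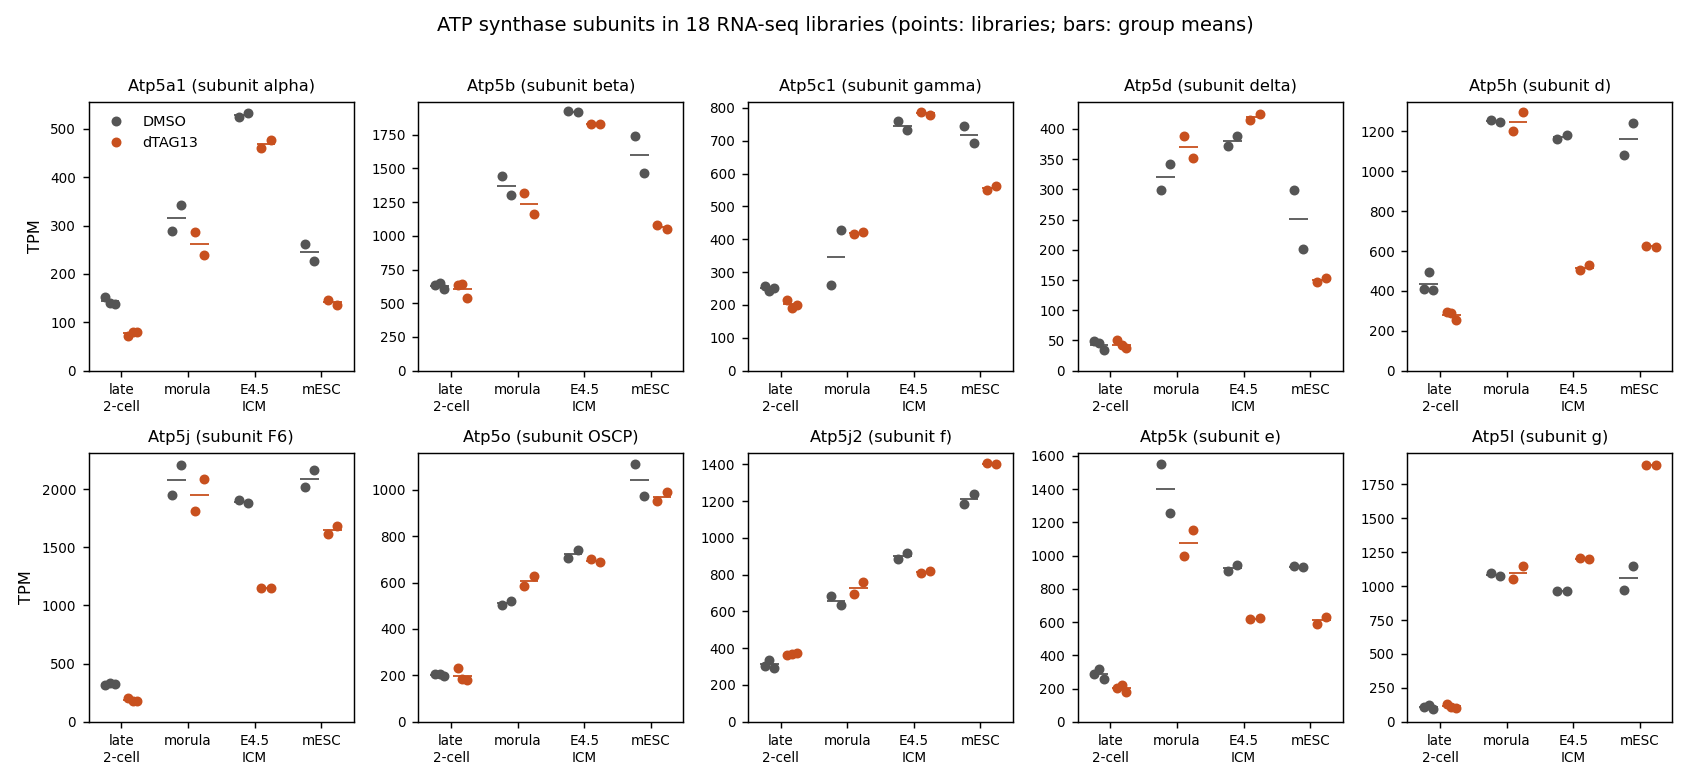
Level of each of the 10 subunit transcripts (TPM, linear axis from 0, own scale per panel) in the 18 libraries by stage; points are libraries and bars are group means, grey for DMSO and orange for dTAG13. In DMSO libraries the late 2-cell levels lie below those of later stages in every panel. Atp5a1, Atp5h, Atp5j and Atp5k lie lower with dTAG13 at the late 2-cell stage, in the ICM and in mES cells.

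Gabpa RNA was read first in the treated groups. dTAG13 acts on the GABPA protein, so the RNA is no check of the depletion. At the late 2-cell stage Gabpa had 106, 116 and 87.3 TPM in controls and 162, 141 and 156 in treated embryos. The levels were 6.67 and 8.13 against 13.6 and 12.8 in morulae, 10.1 and 11.2 against 27.5 and 27.3 in the ICM, and 7.37 and 5.76 against 11.3 and 11.1 in mES cells. Every dTAG13 library exceeded every DMSO library of its stage. The count-based change was 0.52 (SE 0.108, adjusted p = 0.0124) at the late 2-cell stage, 0.95 (SE 0.0518, adjusted p = 7.77e-19) in the ICM and 0.93 (SE 0.131, adjusted p = 0.00136) in mES cells. In morulae it was 0.74 (SE 0.201) with an adjusted p of 0.152. The mean effective length of Gabpa went from 3631 to 2803 bases in the ICM, so its TPM ratio there exceeds its count ratio.

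At the late 2-cell stage 5 of the 10 subunits were lower with dTAG13 and none was higher, against 7.24% of all genes lower and 1.32% higher. None of the members reached the 2-fold cut-off, which 3.63% of genes did in the lower and 0.476% in the higher direction. For the higher direction, edgeR and DESeq2 gave no member at an unadjusted p under 0.05 and limma on log2 TPM gave 1, which did not pass. The median change was -0.25, against 0.02 over all genes.

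In the head, Atp5a1, the α subunit, had 152, 141 and 139 TPM with DMSO and 72.0, 80.1 and 79.9 with dTAG13. The groups lie apart, and the change was -0.93 (SE 0.0855, adjusted p = 6.05e-05, edgeR), or -47.4% in counts. Atp5c1, the γ subunit of the central stalk, had 258, 243 and 252 TPM and then 214, 190.2 and 201, with a change of -0.39 (adjusted p = 0.0116). The catalytic β subunit Atp5b (634, 652 and 605 TPM with DMSO, 633, 639.9 and 539 with dTAG13) and the δ subunit Atp5d (48.9, 45.1 and 33.7, then 50.4, 42.0 and 37.4) overlapped between the groups, with changes of -0.11 and -0.06. The TPM ratio of Atp5a1 to Atp5b was thereby 0.240, 0.216 and 0.230 in controls and 0.114, 0.125 and 0.148 in treated embryos.

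In the peripheral stalk, Atp5j, the coupling factor F6, had 318, 337 and 323 TPM with DMSO and 203, 180.4 and 174 with dTAG13. No dTAG13 library came near a DMSO library, and the change was -0.90 (SE 0.103, adjusted p = 0.000299, edgeR). Atp5h, subunit d of the same stalk, went from 409, 493 and 407 TPM to 296, 290.0 and 256, also without overlap (-0.71, SE 0.122, adjusted p = 0.00416). Atp5o, the oligomycin sensitivity protein OSCP that joins stalk and head, overlapped, at 204, 205 and 198 TPM with DMSO and 229.9, 186 and 181 with dTAG13 (-0.08, adjusted p = 0.729).

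In the membrane part, Atp5k, subunit e, had 287, 316 and 256 TPM with DMSO and 202, 218 and 180.3 with dTAG13, without overlap (-0.59, SE 0.147, adjusted p = 0.0304, edgeR). Atp5j2, subunit f, was at 302, 338 and 294 TPM and then at 364, 366 and 372 TPM, with every dTAG13 library above the DMSO libraries, but did not pass in counts (0.19, SE 0.106, adjusted p = 0.353). Atp5l, subunit g, did not separate, at 107, 121 and 93.4 against 133, 106 and 104 TPM (0.02, adjusted p = 0.964). Atp5c1 and Atp5k are the weaker of the 5 results. Both were lost with upper-quartile scaling, which left Atp5a1, Atp5h and Atp5j and shifted the median of all genes by 0.12. They were also lost without dTAG13 replicate 3 (adjusted p = 0.0506 for Atp5c1 and 0.112 for Atp5k).

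In morulae, treated from the 4-cell stage, none of the 10 subunits passed. At an unadjusted p under 0.05 there was none either with edgeR, with DESeq2 or with limma on log2 TPM. Few genes of any kind passed at this stage, 0.205% lower and 0.161% higher (0.198% and 0.154% with the 2-fold cut-off). The spread was wider than in the ICM, with a common biological coefficient of variation of 0.213, and changes ran from -0.40 for Atp5k (SE 0.207) to 0.29 for Atp5c1 (SE 0.224).

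In the peripheral stalk, Atp5j and Atp5h overlapped between the groups in morulae. Atp5j had 1948 and 2209 TPM in controls and 1809 and 2086 in treated embryos (-0.13, SE 0.191), and Atp5h had 1258 and 1247 against 1203 and 1297 (-0.01, SE 0.188). Atp5o was at 504 and 521 TPM in controls and at 585 and 631 TPM in treated embryos, higher without overlap (0.24, SE 0.188, adjusted p = 0.608, edgeR). Atp5d (299 and 342, then 389 and 352 TPM) and Atp5j2 (685 and 632, then 695 and 762 TPM) also lay higher without overlap, with changes of 0.21 and 0.12. Atp5k was at 1550.4 and 1255 TPM against 998 and 1153, and Atp5a1 at 289 and 343 against 286 and 238, both lower without overlap. None of these 5 differences passed. The share of all genes whose groups lie apart in this way was not counted, so these 5 are no result about the members. Atp5b, Atp5c1 and Atp5l overlapped, and ranged from 261 TPM (Atp5c1, DMSO replicate 1) to 1440.4 TPM (Atp5b, the same library).

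In the ICM 7 of 10 subunits were lower with dTAG13 and 2 were higher, against 38.5% and 38.4% of all genes. Replicates hardly differed in the ICM. The common biological coefficient of variation was 0.0237, against 0.284 at the late 2-cell stage. The variance between the replicates was 1.62 and 1.69 times that of counting alone. With all 18 libraries in 1 fit, 3 members were lower (Atp5h, Atp5j and Atp5k) and none was higher. Scaling by library totals or by upper quartile gave 6 lower and 3 higher. Only Atp5h reached the 2-fold cut-off, which 13.2% of genes did as lower and 12.1% as higher, and the median change of the members was -0.17 against 0.01 over all genes.

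The largest changes in the ICM were those of 2 peripheral stalk genes. Atp5h had 1162 and 1184 TPM with DMSO and 506 and 528 with dTAG13, a change of -56.8% in counts (-1.21 on the log2 scale, SE 0.0282, adjusted p = 1.19e-30, edgeR). Atp5j followed, from 1903 and 1877 TPM to 1148 and 1152 (-0.79, SE 0.0239, adjusted p = 4.87e-27). Both genes lie far apart between the groups. Atp5o, the third stalk protein measured, had 705 and 742 TPM and then 700.1 and 687 (-0.09, adjusted p = 0.00244), a difference that turned to 0.01 under upper-quartile scaling.

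In the membrane part of the ICM, Atp5k fell from 909 and 941 to 618 and 624 TPM (-0.59, SE 0.0350, adjusted p = 1.3e-17, edgeR). Atp5l, in contrast, rose from 966 and 963 to 1205 and 1198 TPM (0.29, SE 0.0259, adjusted p = 1.63e-12). Atp5j2 had 887 and 919 TPM with DMSO and 812 and 819 with dTAG13 (-0.16). Subunits e and g, which sit side by side where the enzyme forms dimers, thus had opposite directions.

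Changes in the head were small in the ICM. Atp5a1 went from 525 and 533 to 461 and 477 TPM (-0.22), and Atp5b from 1923 and 1916 to 1825 and 1826 TPM (-0.17). Atp5d, at 372 and 388 and then 415 and 425 TPM, was higher by 0.09, a result that was lost with DESeq2 (adjusted p = 0.0531), and in counts without DMSO replicate 1 (adjusted p = 0.128) or without dTAG13 replicate 2 (adjusted p = 0.0534). Atp5c1 had 759 and 734 against 788 and 777 TPM and did not pass (0.03, adjusted p = 0.324), although it passed as higher under scaling by library totals or upper quartile (0.09 and 0.13).

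Markers of other cell types moved together with these ICM changes. All 8 trophectoderm markers were higher with dTAG13 and their summed level was 66.8 and 72.8 TPM in controls and 778 and 779 TPM in treated samples. None of the 8 was at 0, with 4 at 1 TPM or more in controls and 7 in treated samples. All 8 epiblast markers were lower (539.6 and 554 TPM, then 381 and 381), and of 6 primitive endoderm markers 3 were higher and 2 lower (234 and 242 TPM, then 309.8 and 309.6). The median change was 2.75 for the trophectoderm list and -0.89 for the epiblast list. The part of this shift in the subunit changes was not tested.

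In mES cells, 7 of 10 subunits were again lower with dTAG13 and 2 higher, against 28.1% and 26.5% of all genes, with a median change of -0.39 against 0.03. None reached the 2-fold cut-off, which 15.6% of genes did as lower and 12.4% as higher. Trophectoderm markers summed to 139 and 108 TPM with DMSO and 133 and 127 TPM with dTAG13 in these cells, with 1 lower and 1 higher of the 6 tested. The epiblast list summed to 406 and 408 TPM with DMSO and 277 and 264 TPM with dTAG13, with 2 of 8 markers lower and 1 higher. Leaving out either dTAG13 replicate left 3 members lower (Atp5a1, Atp5b and Atp5h) and 1 higher (Atp5l), and without DMSO replicate 2 the counts of members called at 2-fold were 1 lower and 1 higher.

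In mES cells all 4 head subunits were lower. Atp5a1 went from 262 and 227 to 147 and 136 TPM (-0.89, SE 0.114, adjusted p = 0.000914, edgeR). Atp5b, at 1738 and 1465 and then 1083 and 1051 TPM, fell by 0.68 on the log2 scale (SE 0.123, adjusted p = 0.00371). Both groups lie apart for both genes. Atp5d had 299 and 201 TPM with DMSO, which differed from each other more than the dTAG13 libraries at 147 and 153 (-0.66, SE 0.176, adjusted p = 0.0175). Atp5c1, at 743 and 692 and then 548 and 561 TPM, was lower (-0.30, adjusted p = 0.0303). The result of Atp5c1 was lost in 6 alternatives and kept in 9, that of Atp5d lost in 2 and kept in 13.

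In the peripheral stalk of mES cells, Atp5h fell from 1082 and 1245 to 627 and 622 TPM (-0.80, SE 0.110, adjusted p = 0.00125, edgeR). Atp5j was only slightly lower, at 2017 and 2164 with DMSO and 1614 and 1681 with dTAG13 (-0.27, SE 0.0968, adjusted p = 0.0493). Although its groups do not overlap in TPM, this result sits at the threshold and was lost in 8 of 15 alternatives. Atp5o overlapped, at 1113 and 973 TPM against 950.3 and 990.1 (-0.01, adjusted p = 0.912).

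The membrane subunits of mES cells parted in direction. Atp5l rose from 968 and 1147 to 1893 and 1892 TPM (0.93, SE 0.114, adjusted p = 0.000777, edgeR), the largest increase of a member at any stage of treatment. Atp5k fell from 936 and 929 to 591 and 629.8 TPM (-0.49, SE 0.10, adjusted p = 0.00651). Atp5j2 was higher, at 1185 and 1238 and then 1407 and 1399.9 TPM (0.32, adjusted p = 0.0228), a result that was lost with limma and without the count filter.

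**Figure D2:**
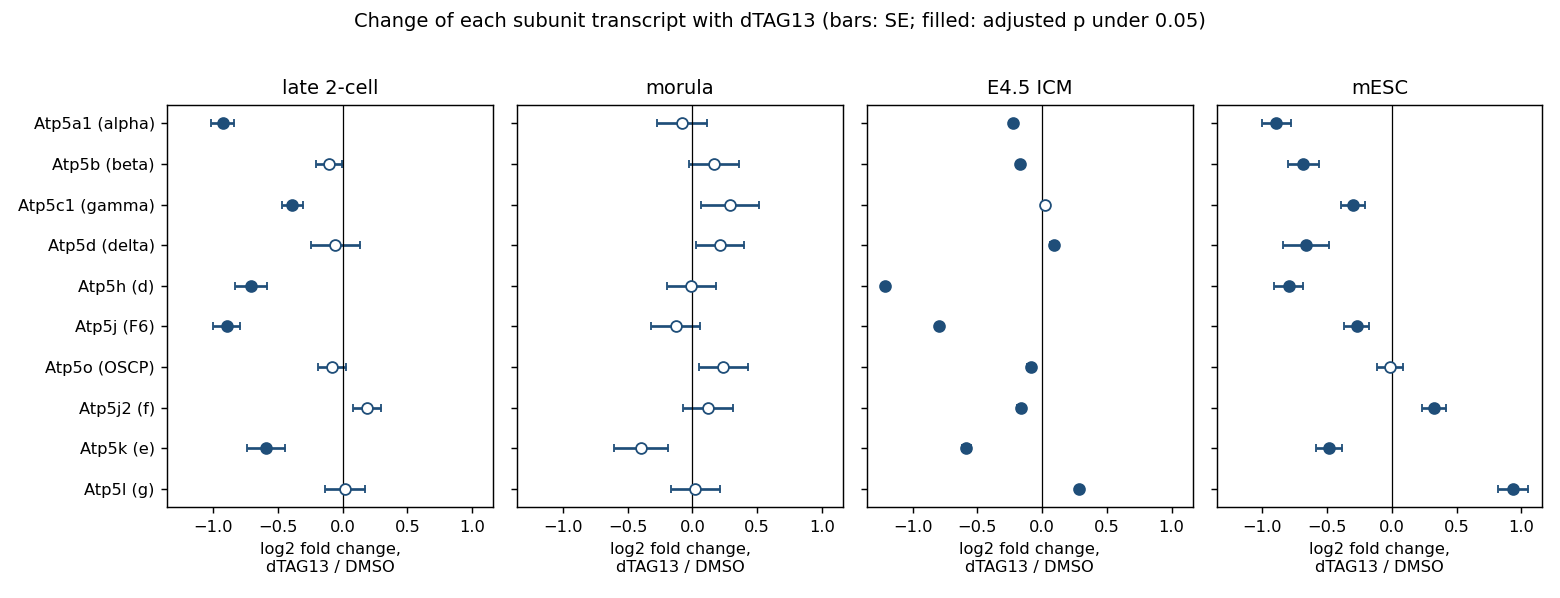
Change of each subunit transcript with dTAG13 at each stage, as log2 fold change of dTAG13 over DMSO with bars for the SE; filled points passed at an adjusted p under 0.05 and open points did not. Atp5a1, Atp5h, Atp5j and Atp5k lie left of 0 with filled points at the late 2-cell stage, in the ICM and in mES cells. Atp5l lies right of 0 with filled points in the ICM (0.29) and in mES cells (0.93).

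Members moved in opposite directions, and the make-up of the subunit transcripts shifted. The 10 summed to 10111 and 10194 TPM in ICM controls and 8478 and 8514 TPM with dTAG13, and to 10343 and 10281 TPM and then 9009 and 9116 TPM in mES cells. Of that sum, Atp5l held 9.55% and 9.44% in ICM controls and 14.2% and 14.1% with dTAG13. In mES cells its share went from 9.36% and 11.2% to 21.0% and 20.8%. Atp5h fell in parallel, from 11.5% and 11.6% to 5.97% and 6.21% in the ICM.

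The TPM ratio of Atp5l to Atp5j, a pair chosen after their values were seen, describes this per library and is no further evidence of it. At the late 2-cell stage, where Atp5j passed and Atp5l did not (0.02), it was 0.336, 0.360 and 0.289 in controls and 0.656, 0.586 and 0.599 in treated embryos. In the ICM it went from 0.508 and 0.513 to 1.05 and 1.04, and in mES cells from 0.480 and 0.530 to 1.17 and 1.13. Morulae stayed near their controls, with 0.562 and 0.486 against 0.581 and 0.550. Outside the morula, every dTAG13 ratio exceeded every DMSO ratio of the same stage, and in the ICM and mES cells the dTAG13 ratios exceeded 1.

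**Figure D3:**
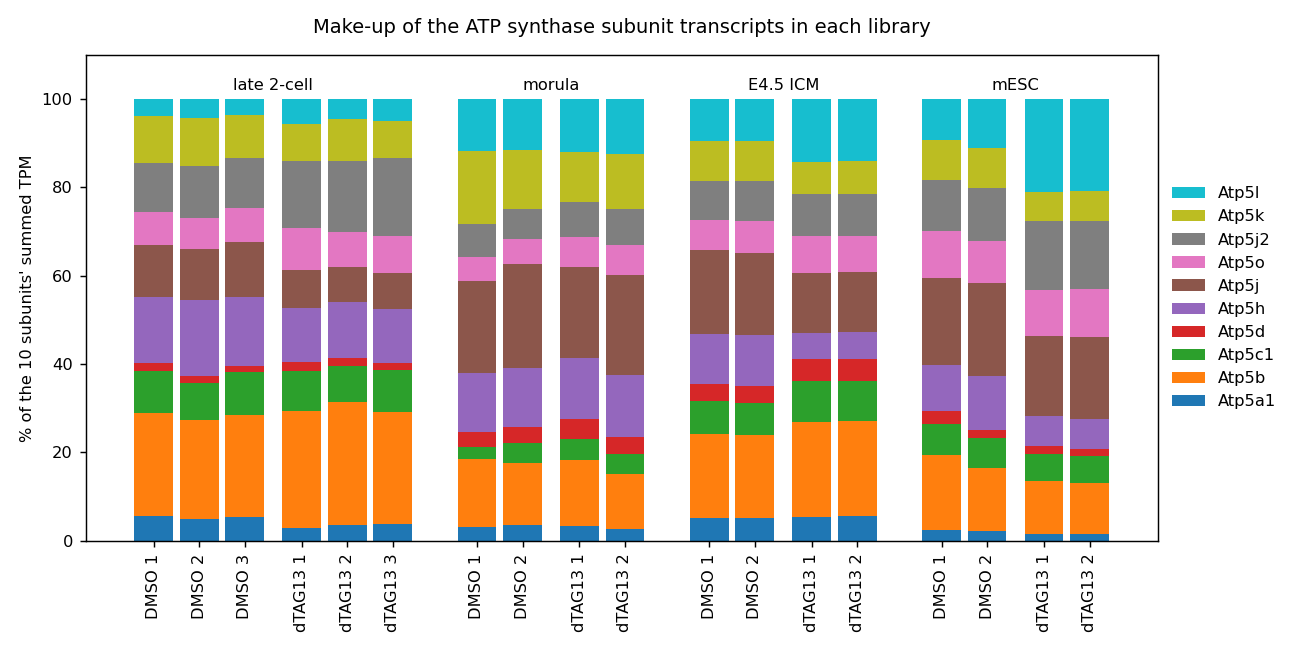
Share of each subunit in the summed TPM of the 10 subunits (%), stacked to 100 in each of the 18 libraries, with stages side by side. The top segment, Atp5l, widens with dTAG13 in the ICM (9.55% and 9.44% to 14.2% and 14.1%) and in mES cells (9.36% and 11.2% to 21.0% and 20.8%), while Atp5h narrows.

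Whether stages differed in their response was tested with an interaction term in edgeR. Between ICM and mES cells, 4 members had a higher change in the ICM (Atp5a1, Atp5b, Atp5c1 and Atp5d) and 4 a lower one (Atp5h, Atp5j, Atp5j2 and Atp5l), against 20.1% and 21.8% of all genes. The difference of log2 changes was 0.65 (SE 0.107, adjusted p = 0.00133) for Atp5a1, which fell more in mES cells, and -0.54 (SE 0.102, adjusted p = 0.0027) for Atp5j, which fell more in the ICM. For Gabpa the difference was 0.00 (SE 0.115) in counts, though 0.46 with offsets for effective length and 0.59 in log2 TPM with limma. Of the 4 higher members 1 passed without ICM DMSO replicate 1, and 2 passed without ICM DMSO replicate 2 or without mES cell dTAG13 replicate 1.

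Between the late 2-cell stage and the ICM, 2 members had a lower change at the late 2-cell stage and 1 a higher one, against 11.2% and 11.3% of all genes. Atp5a1 differed by -0.69 (SE 0.0944, adjusted p = 0.000527) and Atp5c1 by -0.41 (SE 0.0866, adjusted p = 0.00695), both lower at the late 2-cell stage. Atp5h differed by 0.51 (SE 0.160, adjusted p = 0.0402), having fallen more in the ICM, a difference that no longer passed in 10 of 21 alternatives. Without ICM DMSO replicate 2, 1 member had a lower change. For Atp5j the difference was -0.09 (SE 0.108, adjusted p = 0.614).

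Atp5j and Gabpa, read side by side, moved in opposite directions with dTAG13 at the late 2-cell stage, in the ICM and in mES cells. The change in counts was -46.2%, -42.3% and -17.2% for Atp5j and 43.4%, 93.2% and 91.0% for Gabpa. Reads of the 397 exonic bases that both genes share cannot be told apart by strand. In the ICM controls Atp5j was at 1903 and 1877 TPM and Gabpa at 10.1 and 11.2 TPM. Over the 8 group means of stage and treatment, among 6409 genes, Gabpa ranked 6385 by likeness to Atp5j (Pearson r = -0.98 of log2(TPM + 1), a description over group means that share stages). The 5 genes most like Atp5j were Gm5617, Rpl27, Rack1, Malsu1 and Rpl10a, with r from 0.987 to 0.989. Of the members, Atp5k was the most like it, at rank 98 with r = 0.959, and Atp5a1 the least, at rank 1168 with r = 0.722.

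**Figure D4:**
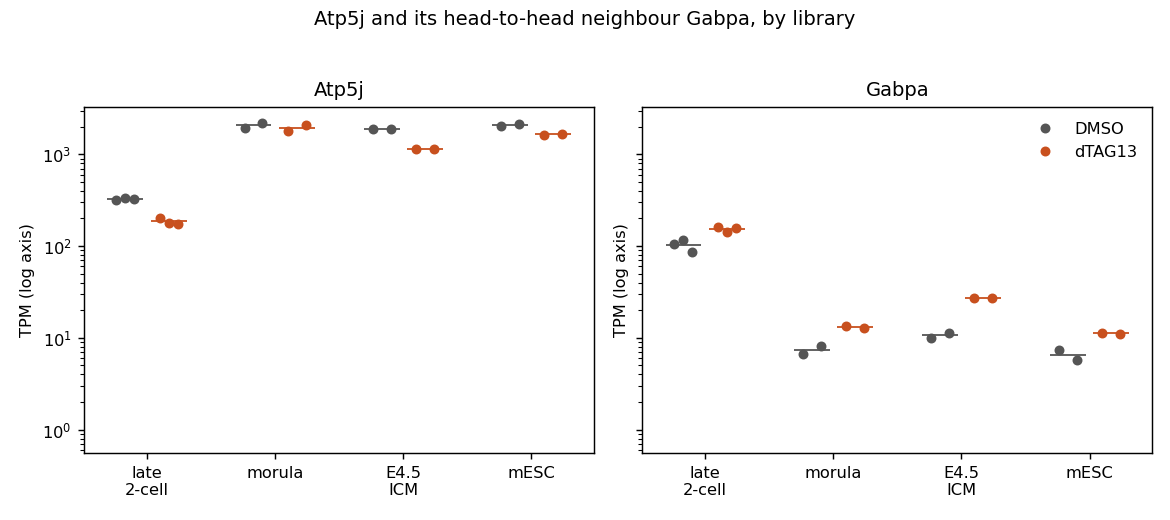
Levels of Atp5j and of its head-to-head neighbour Gabpa (TPM, shared log axis) in the 18 libraries by stage; points are libraries and bars are group means, grey for DMSO and orange for dTAG13. The DMSO and dTAG13 points of Atp5j overlap in morulae and lie lower with dTAG13 at the other stages, whereas those of Gabpa lie higher with dTAG13 at each of the 4 stages.

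Copies touch some members. Atp5h shares 25.4% of its 31-base words with other genes, chiefly the processed pseudogene Gm10250 (mean 77.0 expected counts), and Atp5l shares 14.2%, with Gm10221 (mean 240.3) and Gm4045 (mean 37.9). Atp5o shares 49.6% of its words, the highest share of the 10, and a second Atp5o identifier held 0 to 1.78 counts. Values of these 3 genes are uncertain to the extent that the counting split reads between copies. Adding the reads of copies with most of their words in a member left the numbers of passing members unchanged at each stage of treatment. They were 5 lower at the late 2-cell stage, none in morulae, and 7 lower and 2 higher in both the ICM and mES cells. The addition did not cover every gene that shares words. Gm15976 and D430001F17Rik overlap 18.05% and 17.55% of the exonic bases of Atp5o on the opposite strand.

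The 9 other subunits gave a mixed picture. At the late 2-cell stage 3 were lower and none higher, against 7.24% and 1.32% of all genes. Atp5e, the ε subunit of the central stalk, fell from 230.3, 235 and 232 to 95.2, 107 and 104 TPM (-1.24, SE 0.133, adjusted p = 0.000195, edgeR). The others were Usmg5 (-0.92), a small protein of the membrane part, and Atp5mpl (-0.65). For the higher direction no other subunit had an unadjusted p under 0.05 with edgeR, DESeq2 or limma. Atp5e and Usmg5 hold the letters CCGGAAG in their promoter windows, and are the 2 that do among the 6 other subunits with a window (33.3%).

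In the ICM 2 of these 9 were lower, Atp5e (-0.31) and Usmg5 (-0.61), and 5 higher, namely Atp5f1 (0.26), Atp5g3 (0.14), Atp5mpl (0.25) and the mitochondrially encoded mt-Atp6 (0.39) and mt-Atp8 (0.33), against 38.5% lower and 38.4% higher of all genes. Mitochondrial genes together took 3.88% and 3.78% of counts in ICM controls and 6.02% and 5.96% with dTAG13. In mES cells, where 28.1% of all genes were lower and 26.5% higher, Atp5e (-0.63), Usmg5 (-0.62) and Atp5g3 (-0.32) were lower, and Atp5mpl rose from 1042 and 1393 to 2122 and 2111 TPM (0.92, adjusted p = 0.00238, edgeR). The change of mt-Atp6 in mES cells was 1.67 (SE 0.767, adjusted p = 0.105), in libraries where mitochondrial genes took 0.37% and 2.17% of counts in controls and 5.16% and 4.51% in treated cells. In morulae no other subunit passed, with 2 higher at an unadjusted p under 0.05 in edgeR, DESeq2 and limma alike.

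Assembly factors and the inhibitor followed no single direction. None of the 6 passed at the late 2-cell stage or in morulae. At the late 2-cell stage none had an unadjusted p under 0.05 with edgeR, DESeq2 or limma, and in morulae 1 was higher at that level with each. In the ICM Tmem70 (0.56), Atpif1, the ATPase inhibitor (0.29), and Atpaf1 (0.15) were higher, and Atpaf2 (-0.59), Atp5s (-0.20) and Tmem242 (-0.18) lower, 3 each way against 38.4% higher and 38.5% lower of all genes. Atpaf1, Atp5s and Tmem242 did not pass with DESeq2 (adjusted p = 0.0540, 0.182 and 0.0958), nor Atp5s with limma. Atpif1 was the only one to pass in mES cells, from 2386 and 2207 to 3321 and 3566 TPM (0.68, SE 0.0962, adjusted p = 0.00137, edgeR). Of all genes, 26.5% were higher and 28.1% lower in mES cells.

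Of the 3 carriers that bring ADP and phosphate to the enzyme, none passed at the late 2-cell stage or in morulae, also at an unadjusted p under 0.05 with edgeR, DESeq2 or limma. In the ICM Slc25a4, an ADP/ATP carrier, was higher (0.34) and Slc25a5, its paralogue, lower (-0.10), of which Slc25a5 did not pass with limma on log2 TPM, and all genes were 38.4% higher and 38.5% lower. In mES cells, where 28.1% of all genes were lower, both were lower. Slc25a4 changed by -0.67, and Slc25a5, at 1398 and 1262 and then 540.4 and 545 TPM, by -1.21 (adjusted p = 0.000139, edgeR).

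The respiratory chain complexes were counted the same way. At the late 2-cell stage 9 of 36 nuclear complex I subunits and 5 of 11 complex IV subunits were lower, against 7.24% of all genes. None was higher with edgeR, where 2 complex I subunits and no complex IV subunit were higher at an unadjusted p under 0.05, and 1 complex I subunit passed as higher with DESeq2 and 2 with limma. The lists had medians of -0.14 and -0.42 against -0.25 for the 10 ATP synthase members. In the ICM complex I had 17 lower and 15 higher and complex IV 7 and 3, where 38.5% of all genes were lower and 38.4% higher. In mES cells complex I had 12 lower and 11 higher with a median of 0.14, and complex IV 4 and 6 with a median of 0.32, against -0.39 for the ATP synthase members and shares of 28.1% lower and 26.5% higher over all genes. In morulae none of either list passed with edgeR, where 1 complex I subunit was lower and 5 were higher at an unadjusted p under 0.05, and 1 complex IV subunit each way. With DESeq2 1 complex IV subunit passed as lower there. Between lists no difference was tested.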

How the data were processed

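RNA-seq libraries were made, per the labels and the study's methods, with SMART-Seq v4 and Nextera XT, which do not keep strand. The authors trimmed reads (Trimmomatic 0.39), mapped them to GRCm38 with STAR and estimated gene levels with RSEM. The authors deposited 1 table per library with the expected count, TPM, FPKM and effective length of 55385 gene identifiers. RSEM divides reads among copies and isoforms, so counts are estimates, and TPM moves with the effective length as well as with the reads. The other 27 samples of the series, which are not RNA-seq, were not analysed here.

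The deposited expected counts were rounded and tested in R 4.3.3 with edgeR 4.0.16 (TMM scaling, quasi-likelihood test), within each stage, for genes with at least 10 counts in a number of libraries equal to the smaller group. Control stages were compared in 1 fit of the 9 DMSO libraries, and differences between stages by an interaction term. Adjustment (Benjamini-Hochberg) covered every gene in a fit. The deposited FPKM values served only for the cut-off of 1 in the calls, taken as the higher of the group means. The deposited TPM values gave levels and entered the alternative with limma 3.58.1 on log2(TPM + 0.1) or log2(TPM + 1), and DESeq2 1.42.0 was a further alternative. The scripts were tested on simulated counts. Gene symbols and spans came from GENCODE M21, promoter windows from RefSeq (GRCm38.p6), and copies from 31-base words shared with other annotated transcripts.

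Members were given as a list. The members, the lists and the tests were chosen with earlier results of these data known. All 10 members and Gabpa are named at every stage, other genes of the pathway when they passed, and the 5 genes most like Atp5j by Pearson correlation of log2(mean TPM + 1) over 8 group means, among genes with a mean of at least 10 TPM. Replicates were compared with the counting error. The variance between them was 1.62 to 16.1 times that of counting alone, so no libraries were merged. Libraries held 9457933 to 27660132 expected counts. The variance between replicates exceeded that of counting least in the ICM (1.62 and 1.69 times), and was not computed for the members alone.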

Additional observations from a re-analysis of the deposited data

Results flagged for a closer look

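The interaction term passed for 11 of the 20 differences of dTAG13 effects between stages tested over the 10 subunits (edgeR, quasi-likelihood test, Benjamini-Hochberg over all genes). For ICM minus mES cells 4 members were higher and 4 lower, against 20.1% and 21.8% of all genes. For late 2-cell minus ICM 1 was higher and 2 were lower, against 11.3% and 11.2% of all genes. Between the ICM and mES cells the difference of log2 changes (ICM minus mES cells) was 0.65 for Atp5a1, 0.49 for Atp5b, 0.30 for Atp5c1 and 0.73 for Atp5d. It was -0.43 for Atp5h, -0.54 for Atp5j, -0.51 for Atp5j2 and -0.66 for Atp5l. The differences of Atp5a1, Atp5j, Atp5j2 and Atp5l passed in all 19 alternatives run for them, that of Atp5h in 10 and that of Atp5c1 in 12. Between the late 2-cell stage and the ICM (late 2-cell minus ICM) the difference was -0.69 for Atp5a1, -0.41 for Atp5c1 and 0.51 for Atp5h. That of Atp5a1 passed in all 21 alternatives, that of Atp5c1 in 19 and that of Atp5h in 11. Dose and duration of treatment also differ between embryos and mES cells, and cannot be told apart from the stage. All 11 differences involve the ICM, where trophectoderm and epiblast markers shifted with dTAG13. The part of that shift in these differences was not tested.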

How the results depend on the processing

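Of 355 alternative values for members that passed in a comparison of dTAG13 with DMSO, 306 stayed on their side of the threshold, 48 no longer passed and 1 reversed (Atp5o in the ICM, 0.014 under upper-quartile scaling). Atp5a1, Atp5h and Atp5j at the late 2-cell stage, Atp5h, Atp5j and Atp5k in the ICM, and Atp5a1, Atp5b, Atp5h and Atp5l in mES cells passed in every alternative run. Over all 1628 values of single genes, 91 took the opposite sign with neither value past the threshold.

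The number of lower members at the late 2-cell stage was 3 with upper-quartile scaling and 3 to 5 with 1 library left out. In the ICM 3 were lower and 0 higher with all 18 libraries in 1 fit, 1 was higher with DESeq2 and 1 to 2 with 1 library left out. In mES cells 3 to 7 were lower and 1 to 2 higher with 1 library left out, and 1 was higher without the count filter, with limma at both pseudocounts and with the replicate block. Members called at 2-fold in mES cells numbered 0 to 1 in each direction with 1 library left out, and 1 as higher with upper-quartile scaling. From morula to ICM controls limma gave 1 lower and 5 higher, and Atp5j2 turned to 0.46 at both pseudocounts. From ICM to mES cell controls 0 to 1 were lower and 4 to 6 higher with 1 library left out, and 2 were higher with library totals or limma, where Atp5c1 (-0.057) and Atp5h (-0.015) reversed. For ICM minus mES cells 1 was higher with all 18 libraries in 1 fit and 1 to 4 with 1 library left out, and the difference of Gabpa turned to 0.46 with length offsets and to 0.59 with limma. For late 2-cell minus ICM 1 was lower with all 18 libraries and 1 to 2 with 1 left out, 2 were higher with library totals, DESeq2, length offsets, limma or the replicate block, 0 with upper-quartile scaling or all 18 libraries, and 0 to 2 with 1 left out. Where a group was left with 1 library, it is assumed to vary like the others. The causes were not tested.

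Scaling moved the split of all genes, from 1262 lower and 230 higher at the late 2-cell stage to 957 and 482 with upper quartiles and 1059 and 365 with library totals, in morulae from 28 and 22 to 88 and 40 with library totals, from morula to ICM controls from 4172 and 4884 to 5096 and 3871 with upper quartiles, and from ICM to mES cell controls from 4113 and 4340 to 6264 and 2665 with library totals.

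Replicate numbers are shared by the groups. The deviations of same-numbered libraries correlated at 0.040, 0.084 and 0.10 at the late 2-cell stage. They correlated at 0.035 in morulae, 0.011 in the ICM and -0.150 in mES cells. Such weak correlations cannot decide whether the numbers pair the libraries. Over all genes the replicate block moved the lower and higher counts from 1262 and 230 to 1318 and 262 at the late 2-cell stage. In morulae they went from 28 and 22 to 201 and 191. In the ICM they went from 6098 and 6076 to 6000 and 5966, and in mES cells from 4352 and 4117 to 4124 and 4035. With the replicate block, 5 members were lower and 1 higher in mES cells, and 4 lower and 3 higher for ICM minus mES cells, while counts in the other dTAG13 comparisons within a stage were those without the block. With the numbers crossed in mES cells, an alternative chosen after seeing the data, 7 were lower and 2 higher. With 2 libraries a group, changes near the SE could not be detected in morulae.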

Other observations

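The rise from the late 2-cell stage to the morula in DMSO controls extended beyond the 10 subunits. Stage and preparation batch cannot be told apart here either. Of the 36 nuclear complex I subunits 34 were higher (median 2.20 on the log2 scale) and none lower (33 higher and 1 lower with limma on log2 TPM), and all 11 complex IV subunits were higher (median 1.54), against a median of -0.28 over all genes, of which 31.2% were higher and 38% lower (edgeR). Atp5g2, 1 of 3 genes for the rotor ring subunit c, went from 12.0, 8.14 and 9.66 TPM to 219 and 149 TPM (4.56, SE 0.206, adjusted p = 2.92e-09), whereas Atp5g1 was already at 1762, 1853 and 1667 TPM at the late 2-cell stage and at 1619.7 and 1911 TPM in morulae. Slc25a4, an ADP/ATP carrier, went from 5.37, 6.18 and 6.18 TPM to 149.6 and 152 TPM (5.00, SE 0.139, adjusted p = 2.92e-10). The mitochondrially encoded mt-Atp6 changed by -0.89 (adjusted p = 0.157) and mt-Atp8 by -1.54 (adjusted p = 0.0376) between the same stages, of which mt-Atp8 did not pass with DESeq2 (adjusted p = 0.0740).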
